A study of Mus musculus with 12 samples.

Results

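Transcripts of 40 genes for collagens, proteoglycans, basement membrane proteins and matrix-remodelling enzymes were followed in mouse liver. The genes were taken by symbol from a fixed list, and all 40 were found among the 55291 genes of the count table. Liver RNA was sequenced from C57BL/6 mice, an inbred laboratory strain. All 12 libraries came from males that entered at 6 weeks of age, and there were 3 libraries in each of 4 groups. In the HFD+RE and HFD+AE groups, mice were fed the high-fat diet D12492, and after 8 weeks on it they began at least 12 weeks of exercise named RE or AE. HFD mice received that diet with no exercise stated, and NC mice received a normal diet. AE and RE are given only as abbreviations, and 8 mice were assigned to each of the HFD+RE, HFD+AE and HFD groups and 13 to NC. Library numbers are those of the labels, namely 3 to 5 for HFD+RE, 1 to 3 for both HFD+AE and HFD, and 2, 4 and 5 for NC. The labels do not state whether each library is a different mouse. The p-values therefore reflect spread among these libraries alone, and it may be technical.

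The extracellular matrix of the liver is made of interstitial fibres around portal tracts and central veins and of a thin perisinusoidal matrix between sinusoids and hepatocytes. Fibrillar collagens are secreted as procollagen triple helices, trimmed, assembled with the help of small proteoglycans and crosslinked by lysyl oxidases. Basement membranes instead are meshes of type IV collagen, laminins, nidogen and perlecan. In injured liver, stellate cells and portal fibroblasts are the best known sources of fibrillar collagen, while hepatocytes secrete plasma fibronectin and make much of the endostatin collagen type XVIII.

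Promoter windows of a pair of members that rose in HFD livers are shown because the base composition and short motifs before their starts differ. Both are the 250 bases before the RefSeq transcript start on build GRCm38.p6, read 5′ to 3′ on the gene's strand. They were the called members with a window free of annotated exons. Capitals mark matches to the motifs named after them.
Col3a1 (chr1:45311288-45311537, plus strand): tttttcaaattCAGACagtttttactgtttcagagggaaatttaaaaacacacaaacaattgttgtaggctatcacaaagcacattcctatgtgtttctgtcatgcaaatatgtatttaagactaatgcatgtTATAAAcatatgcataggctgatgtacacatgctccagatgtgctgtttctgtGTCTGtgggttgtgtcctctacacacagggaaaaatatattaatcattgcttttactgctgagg
Bgn (chrX:73483351-73483600, plus strand): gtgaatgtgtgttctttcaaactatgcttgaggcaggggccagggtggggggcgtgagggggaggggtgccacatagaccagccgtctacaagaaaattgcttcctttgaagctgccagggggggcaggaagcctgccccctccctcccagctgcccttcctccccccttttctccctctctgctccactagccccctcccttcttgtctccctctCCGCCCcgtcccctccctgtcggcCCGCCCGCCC
The Col3a1 window held 35.2% G and C, 1 TATAAA that began 117 bases before the start, and CAGAC (the SMAD box) 239 bases before the start and, on the other strand, 64 bases before it. The Bgn window held 64.4% G and C and 3 matches to GGGCGG (an SP1 motif) on the other strand, beginning 34, 10 and 6 bases before the start, the last pair overlapping. These motifs and 2 others, CCAAT and TGANTCA, were searched on both strands in 29 windows of 25 members and in the 32851 windows of the RefSeq table. TATAAA was in 3 of the 29 member windows (10.3%), against 12.4% of all windows, and GGGCGG was in 18 (62.1%), against 32.7% of all. CCAAT was in 12 member windows (41.4%), against 33.8% of all, CAGAC in 12 (41.4%), against 42.2%, and TGANTCA (AP-1) in 2 (6.9%), against 6.75%. These matches describe letters in a window and carry no test.

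The libraries held between 44373214 and 77665729 counts, and 18305 genes were tested. Alb, the albumin gene, topped all 12 libraries. All 40 members passed the low-count filter, and they took 0.214% to 0.377% of a library's counts. Mitochondrial ribosomal RNA took 1.76% to 3.26% of the counts in HFD libraries and 0.685% to 1.71% in the other 9. Within groups, libraries differed in how levels varied with gene length: the Spearman correlation across genes between length and a gene's level relative to its mean was 0.29, -0.31 and -0.30 in HFD+RE 3, 4 and 5, and 0.35, 0.34 and -0.05 in HFD+AE 1, 2 and 3. In HFD 1, 2 and 3 this correlation was -0.28, -0.13 and -0.29, against 0.24, 0.23 and 0.13 for NC 2, 4 and 5. HFD 2 stood apart from HFD 1 and 3 in several lists described below, and HFD+AE 3 and HFD+RE 3 from the others of their groups. In bulk tissue, fewer cells of a type and less RNA per cell cannot be told apart.

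Levels below are CPM, counts scaled to a common library size with TMM factors, and they are divided by exon length in kilobases where genes are compared with each other. Averaged over the 12 libraries, Col18a1 and Fn1 stood far above the other members, at 143 and 131 CPM per kilobase. The next were the leucine-rich proteoglycan genes Dcn (20.2) and Bgn (12.7) and the collagen-binding glycoprotein gene Sparc (10.5 CPM per kilobase). The fibrillar collagen transcripts were low in this tissue, at 1.65 CPM per kilobase for Col3a1, 0.903 for Col1a1 and 0.717 for Col1a2. Lox (0.0398) and Vcan (0.0114 CPM per kilobase) were lowest, with 131 and 109 counts in all 12 libraries together.

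Fn1 and Col18a1 so dominated the sum that the other 38 members made up a minority of member counts in every library. Their share was 17.3%, 14.8% and 21.2% in HFD+RE 3, 4 and 5, and 14.6%, 14.8% and 14.7% in HFD+AE 1, 2 and 3. It was 31.9%, 16.7% and 29.9% in HFD 1, 2 and 3, against 9.89%, 12.3% and 15.1% in NC 2, 4 and 5. Each HFD library lay above each NC library, but HFD 2 was close to NC 5 and inside the range of HFD+RE. The share also moves with the levels of Fn1 and Col18a1. As summed levels, the 38 members were at 586, 443 and 463 CPM in HFD+RE and 515, 532 and 646 CPM in HFD+AE. They were at 678, 498 and 551 CPM in HFD 1, 2 and 3, against 369, 388 and 376 CPM in NC 2, 4 and 5. The HFD+AE sums thus lay inside the HFD range, although their shares were lower.

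**Figure D1:**
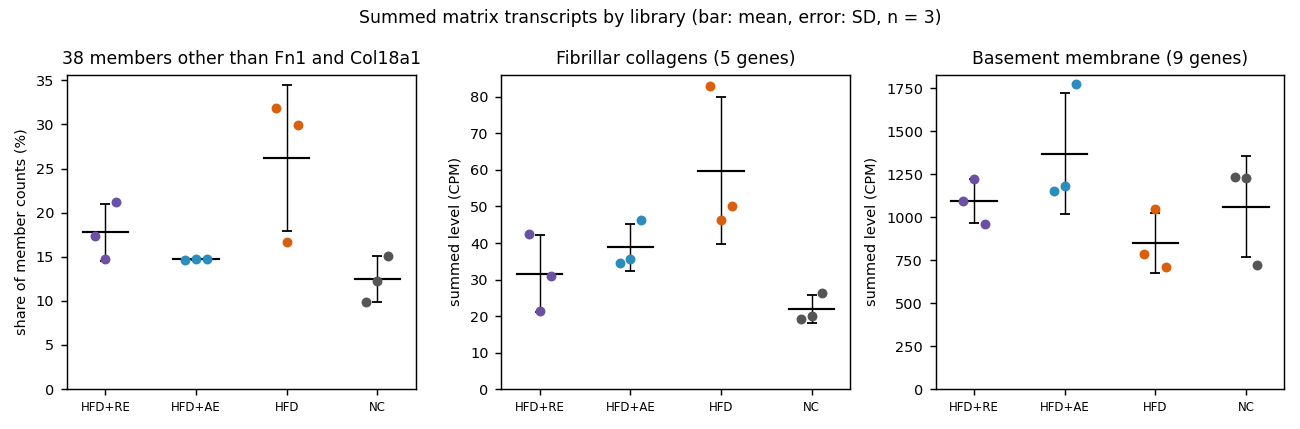
Points are single libraries, bars the mean and error bars the SD over 3 libraries, for the share of member counts outside Fn1 and Col18a1 (%), the summed fibrillar collagens and the summed basement membrane genes (both in CPM). The 3 HFD libraries lie above the NC libraries for fibrillar collagens (46.3 to 82.9, against 19.3 to 26.2 CPM). Basement membrane sums overlap between HFD and NC (711 to 1048, against 724 to 1236 CPM) and lie higher in every HFD+AE library (1151 to 1775 CPM) than in every HFD library. Col18a1 makes up most of the basement membrane sum in every library (for example 704 of 788 CPM in HFD 1 and 1050 of 1151 CPM in HFD+AE 1), so that panel mainly shows 1 gene.

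The effect of diet was read from HFD against NC. Type I and type III collagen, decorin, biglycan, SPARC, Loxl1 and Loxl2 transcripts rose in HFD liver, and perlecan fell. By edgeR's quasi-likelihood F-test, 10 of the 40 members were called higher at a Benjamini-Hochberg adjusted p below 0.05 over all genes tested, beside 8.38% of all genes. A single member was called lower, beside 7.19% of all genes, and 29 were not called. In either direction 15.6% of all genes were called. The median log2 change of the 40 members was 0.65, beside 0.01 over all genes. Separation of the groups was more common than a call: 18 members had all 3 HFD libraries above all 3 NC libraries, beside 23.9% of all genes, and 4 had all 3 below, beside 22.1%.

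Fibrillar collagens, the cables of the interstitial matrix, had the highest role median, at 1.51 on the log2 scale over 5 genes, of which 3 rose. Col1a1, the gene of the α1 chain of type I collagen, had 16.7, 7.53 and 11 CPM in HFD 1, 2 and 3, against 2.40, 1.96 and 4.46 CPM in NC 2, 4 and 5. Every HFD library exceeded every NC library, and HFD 1 was the highest; the log2 change was 1.99 ± 0.41 (SE, adjusted p = 0.0121). Col1a2, its partner chain, had 21.4, 10.7 and 13.5 CPM in HFD libraries, against 3.48, 4.46 and 7.14 CPM in NC libraries (log2 change 1.59 ± 0.34, adjusted p = 0.0128). Its groups were again apart, with the same library highest. Col3a1, the type III chain of loose and vascular connective tissue, had 35.9, 21.3 and 19.0 CPM in HFD libraries, against 7.92, 8.61 and 10.1 CPM in NC libraries. The lowest HFD library was well above the highest NC library, and the log2 change was 1.51 ± 0.29 (adjusted p = 0.00967). The type V chains, which nucleate fibrils, were not called: Col5a1 had a log2 change of 0.75 ± 0.25 (adjusted p = 0.0599) with groups apart, and Col5a2 one of 0.14 ± 0.56 (adjusted p = 0.871).

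Type I collagen is assembled from the products of Col1a1 and Col1a2. Per kilobase, Col1a1 stood to Col1a2 at 1.48, 1.33 and 1.55 in HFD libraries, against 1.31, 0.831 and 1.18 in NC libraries. Every HFD ratio was above every NC ratio, and no test was run on it. Type VI collagen, the beaded filament around cells, is made from Col6a1, Col6a2 and Col6a3. Col6a1 had 8.74, 6.65 and 7.07 CPM in HFD libraries, against 3.51, 4.09 and 4.11 CPM in NC libraries, with no overlap, and rose by 0.94 ± 0.24 on the log2 scale (adjusted p = 0.0245). Col6a2 (0.95 ± 0.34, adjusted p = 0.0698) and Col6a3 (0.60 ± 0.23, adjusted p = 0.0902) were not called, and nor was Col14a1, the fibril-associated type XIV chain (0.59 ± 0.26, adjusted p = 0.123). All of them had HFD libraries above all NC libraries. The ratio of Col6a1 to Col6a3 per kilobase was 2.46, 2.37 and 2.07 in HFD libraries, against 1.81, 1.66 and 2.02 in NC libraries, again apart and without a test. That of Col6a1 to Col6a2 overlapped, at 2.79 to 3.92 in HFD, against 2.90 to 3.50 in NC.

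Among proteoglycans, Dcn and Bgn rose and Lum and Vcan were not called. Dcn encodes decorin, which coats collagen fibrils and limits their width, and had the smallest p of the 40 members. It stood at 209, 128 and 176 CPM in HFD 1, 2 and 3, against 60.2, 65.3 and 71.2 CPM in NC 2, 4 and 5. The lowest HFD value was far above the highest NC value, and the log2 change was 1.38 ± 0.20 (adjusted p = 0.00268). Bgn, the gene of biglycan, a small proteoglycan related to decorin, had 83.9, 64.8 and 78.7 CPM in HFD libraries, against 46.6, 46.8 and 46.7 CPM in NC libraries. The NC values were nearly identical and the change was modest, at 0.70 ± 0.22 (adjusted p = 0.0447). Lum, the gene of lumican, overlapped between the groups (0.13 ± 0.33, adjusted p = 0.811). Vcan, the large hyaluronan-binding proteoglycan gene, rested on 12 to 16 counts in an HFD library and 6 to 11 in an NC library (0.87 ± 0.58, adjusted p = 0.299).

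Of the enzymes that crosslink collagen and elastin, Loxl1 and Loxl2 rose. Loxl2 had 3.25, 2.76 and 2.98 CPM in HFD libraries, against 1.28, 1.15 and 1.27 CPM in NC libraries, tight in both groups and far apart (1.27 ± 0.26, adjusted p = 0.0111). Loxl1, whose product crosslinks elastin, had 1.99, 0.667 and 1.17 CPM in HFD libraries, against 0.409, 0.305 and 0.447 CPM in NC libraries (1.71 ± 0.48, adjusted p = 0.0335). The groups did not overlap, but HFD 2 lay close to NC. Lox itself had 4 to 24 counts in an HFD library and 9 to 16 in an NC library and was not called (0.41 ± 0.68, adjusted p = 0.691). Outside the members, Loxl4 fell (-1.76 ± 0.54, adjusted p = 0.0445) and Loxl3 was not called (-0.12 ± 0.30, adjusted p = 0.804). These genes were named after their values were seen.

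In the elastic fibre group, Efemp1 rose and Eln, Fbn1 and Fbln5 were not called. Efemp1, the gene of fibulin-3, had 8.53, 7.29 and 7.69 CPM in HFD libraries, against 3.62, 4.22 and 4.86 CPM in NC libraries, with all HFD values above all NC values (0.89 ± 0.20, adjusted p = 0.0158). Fbln5, which organises elastin on microfibrils, was at 0.90 ± 0.31 (adjusted p = 0.0621) without overlap. Eln, the elastin gene, had 4.07, 1.29 and 3.58 CPM in HFD libraries, against 1.52, 1.39 and 2.34 CPM in NC libraries. HFD 2 lay below all NC libraries and the other two above them (0.76 ± 0.40, adjusted p = 0.195). Fbn1, the microfibril gene, was at -0.20 ± 0.33 (adjusted p = 0.682).

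Sparc, the gene of a collagen-binding matricellular protein, had 62.8, 39.8 and 57.3 CPM in HFD libraries, against 28.7, 28 and 25 CPM in NC libraries, and rose by 0.97 ± 0.20 (adjusted p = 0.0128). The groups were apart. Postn, Thbs1, Thbs2 and Mgp, the other matricellular and mineral-binding genes, had log2 changes of 0.73 to 1.10 and were not called (adjusted p 0.0957 to 0.229). Fn1, the fibronectin gene, had 744, 1526 and 644 CPM in HFD 1, 2 and 3, against 2235, 1649 and 1477 CPM in NC 2, 4 and 5. HFD 1 and 3 lay below all NC libraries and HFD 2 among them, and the log2 change of -0.88 ± 0.34 was not called by edgeR (adjusted p = 0.0907). DESeq2, which called 20.4% of all genes, called Fn1 lower (adjusted p = 0.0465).

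Basement membrane genes had a median log2 change of -0.31, with 8 of 9 negative, and 1 of 9 was called. Scaled by library totals, 6 of 9 were negative and the median was -0.13, while the median of all genes shifted by 0.19. Hspg2, the gene of perlecan, the heparan sulfate proteoglycan of the subsinusoidal matrix, had 12.6, 14.8 and 9.90 CPM in HFD libraries, against 25.3, 32.1 and 20.6 CPM in NC libraries. Every HFD library lay below every NC library, and it fell by 1.06 ± 0.27 on the log2 scale (adjusted p = 0.0231). Lama4, a laminin chain of vessels, was likewise apart, but not called (-0.95 ± 0.43, adjusted p = 0.137). Col4a1 and Col4a2, the ubiquitous type IV chains, had changes of -0.13 ± 0.20 and -0.44 ± 0.22 (adjusted p = 0.654 and 0.181); they are transcribed head to head, and their exons overlap by 22 bases. Col18a1, Col15a1, Lamb1, Lamc1 and Nid1 lay between -0.49 and 0.17 (adjusted p 0.369 to 0.728). The ratio of Col3a1 to Hspg2 per kilobase, which sets an interstitial against a basement membrane gene, was 4.27, 2.16 and 2.88 in HFD libraries, against 0.469, 0.403 and 0.738 in NC libraries. This pair was chosen as called genes of opposite direction, so the ratio is a description.

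None of the 5 proteases and inhibitors was called by edgeR. An unadjusted p below 0.05 was found for 3 of them, beside 6352 of the 18305 genes tested. DESeq2, which called 20.4% of all genes, called 2, Timp1 higher and Timp3 lower. Timp1, an inhibitor of matrix metalloproteinases that is low in resting liver, had 61, 8 and 29 counts in HFD 1, 2 and 3, against 4, 2 and 16 counts in NC 2, 4 and 5 (2.34 ± 0.82, adjusted p = 0.0663). Timp3, the matrix-bound inhibitor, had 4.94, 10.5 and 3.29 CPM in HFD libraries, against 12.8, 14.4 and 19.9 CPM in NC libraries, without overlap (-1.34 ± 0.52, adjusted p = 0.0899). Its exons overlap those of Syn3 on the other strand over 21.3% of their length, and the strand setting of the counting is not given. Timp2 (0.48 ± 0.21, adjusted p = 0.12), Mmp2, a gelatinase gene (0.30 ± 0.34, adjusted p = 0.545), and Mmp14, a membrane-bound activator of it (-0.27 ± 0.20, adjusted p = 0.361), completed the group.

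**Figure D2:**
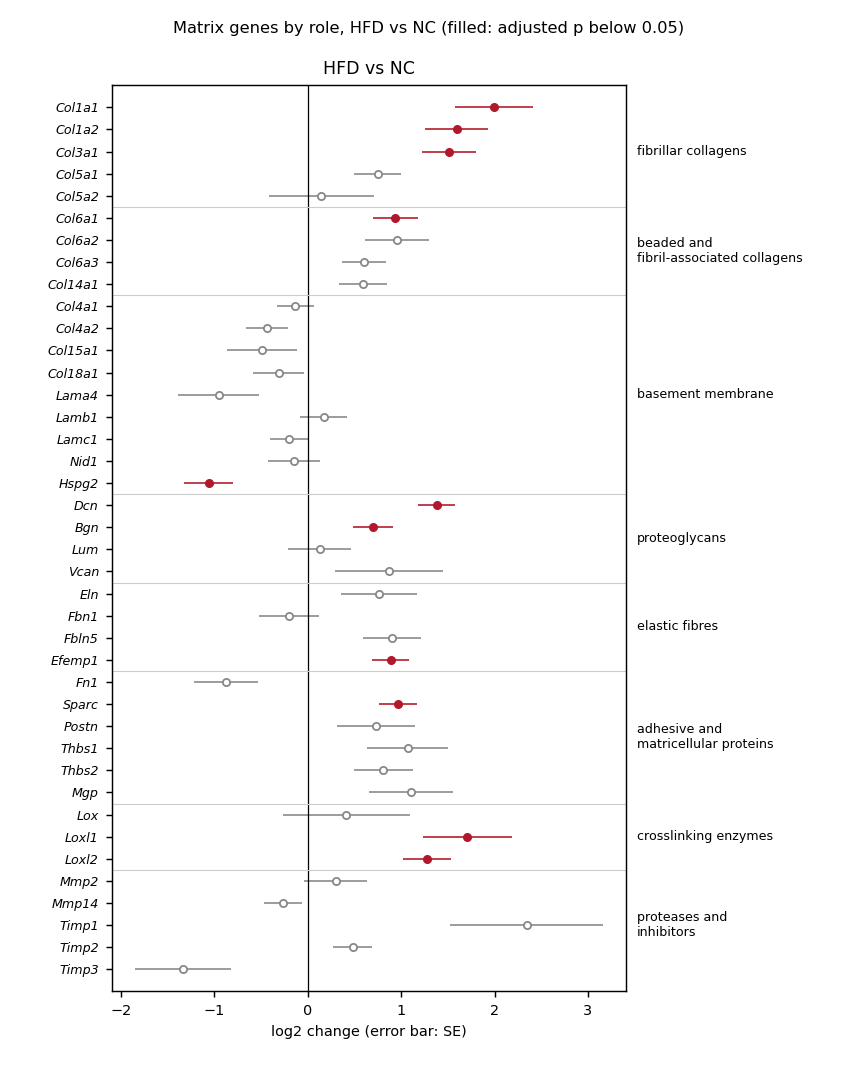
Log2 change of each of the 40 members in HFD against NC, with its SE as error bar, grouped by role; filled points have an adjusted p below 0.05. The 10 filled points right of 0 are spread over 6 roles, and the single filled point left of 0 is Hspg2 among the basement membrane genes.

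Among HFD libraries, HFD 1 was the highest in all 10 members called higher and HFD 2 the lowest in 9 of them. Without HFD 1, 2 members were called higher and 0 lower. Without HFD 3 the counts were 5 and 0, without NC 2 they were 5 and 0, and without NC 4 they were 2 and 0. Without HFD 2 they were 14 and 3, and without HFD+RE 3, which enters through the shared spread, 16 and 3. The share of all genes called in either direction was 2.60% when HFD 1 was omitted and 2.21% when HFD 3 was. Omission of NC 2 gave 4.96% and of NC 4 gave 3.06%. It was 18.8% on omitting HFD 2 and 23.5% on omitting HFD+RE 3. Col3a1 and Dcn were the members called in 21 of the 22 alternative settings, and Bgn, the least often, in 12.

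Exercise was read from HFD+RE and HFD+AE, each against HFD. By edgeR, no member was called in HFD+RE against HFD, where 0.0109% of all genes were, 0.00546% higher and 0.00546% lower. None was called in HFD+AE against HFD either, where 0.0492% of all genes were, 0.0164% higher and 0.0328% lower. In HFD+RE, 9 members had an unadjusted p below 0.05, all with a negative log2 change, beside 1605 of the 18305 genes tested in either direction. DESeq2 called 4 lower (Col1a1, Col1a2, Eln and Thbs1), beside 0.935% of all genes in either direction. In HFD+AE, 13 had an unadjusted p below 0.05, 6 with a positive and 7 with a negative change. Over all genes 4826 of 18305 did, so the 13 of 40 members are near the share of all genes. DESeq2 there called Fn1, Hspg2 and Timp3 higher and Eln, Dcn and Col1a1 lower, 6 of 40 members beside 11.2% of all genes. The member medians were -0.15 in HFD+RE against HFD and -0.03 in HFD+AE against HFD, beside 0.04 and 0.00 over all genes. Both comparisons share the HFD libraries.

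For the fibrillar collagens, the exercise groups lay mostly below HFD. Col1a1 had 4.46, 3.20 and 4.13 CPM in HFD+RE 3, 4 and 5 and 2.90, 4.29 and 8.05 CPM in HFD+AE 1, 2 and 3, against 16.7, 7.53 and 11 CPM in HFD 1, 2 and 3. All HFD+RE libraries were below all HFD libraries, while HFD+AE 3 was above HFD 2. The log2 change was -1.58 ± 0.41 in HFD+RE (adjusted p = 0.282) and -1.22 ± 0.40 in HFD+AE (adjusted p = 0.0945). Col1a2 had 8.26, 4.60 and 6.69 CPM in HFD+RE, and 6.88, 8.19 and 11.5 CPM in HFD+AE, against 10.7 to 21.4 CPM in HFD. It was apart from HFD in HFD+RE (-1.22 ± 0.33, adjusted p = 0.303), and in HFD+AE it overlapped (-0.78 ± 0.33, adjusted p = 0.156). Col3a1 had 18.5, 8.12 and 13.5 CPM in HFD+RE and 17.5, 15.5 and 17.8 CPM in HFD+AE, against 19.0 to 35.9 CPM in HFD. Each exercise library was below the lowest HFD library, with changes of -0.93 ± 0.29 (adjusted p = 0.341) in HFD+RE and -0.58 ± 0.29 (adjusted p = 0.214) in HFD+AE.

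The 40 changes ran from -1.93 for Timp1 to 0.72 for Timp3 in HFD+RE, and from -2.17 to 1.58 for the same genes in HFD+AE. Timp1 had 4 to 14 counts in an HFD+RE library and 4 to 13 in an HFD+AE library, against 61, 8 and 29 counts in HFD 1, 2 and 3. Its exercise libraries overlapped with HFD 2. Eln had 0.983, 0.799 and 1.25 CPM in HFD+RE and 1.60, 0.886 and 1.15 CPM in HFD+AE, against 4.07, 1.29 and 3.58 CPM in HFD. HFD 2 stood near the exercise libraries, and HFD+RE did not overlap with HFD (-1.56 ± 0.41, adjusted p = 0.303, and in HFD+AE -1.29 ± 0.41, adjusted p = 0.0879). Thbs1, the gene of thrombospondin-1, which can activate latent TGF-beta, had 0.794, 0.200 and 0.799 CPM in HFD+RE and 1.36, 0.921 and 1.01 CPM in HFD+AE, against 2.94, 1.69 and 1.69 CPM in HFD. Both exercise groups lay below HFD throughout (-1.81 ± 0.45, adjusted p = 0.282, in HFD+RE and -0.94 ± 0.43, adjusted p = 0.188, in HFD+AE). Loxl2 also lay below HFD in both, at 1.71 to 2.19 CPM in HFD+RE and 1.62 to 2.49 CPM in HFD+AE, against 2.76 to 3.25 CPM in HFD (adjusted p = 0.447 and 0.139). Dcn had 140, 112 and 131 CPM in HFD+RE and 115, 112 and 95.6 CPM in HFD+AE, against 209, 128 and 176 CPM in HFD. It was apart from HFD in HFD+AE only, with changes of -0.42 ± 0.20 (adjusted p = 0.572) in HFD+RE and -0.67 ± 0.20 (adjusted p = 0.0759) in HFD+AE.

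Basement membrane genes were higher than in HFD for 8 of 9 genes in HFD+AE by the sign of the change, with a median of 0.47 and none called. Scaled by library totals, 7 of 9 were positive and the median was 0.25, while the median of all genes shifted by -0.22. In HFD+RE 6 of 9 were positive with a median of 0.01, which was -0.13 under scaling by library totals. Hspg2 had 23.1, 13.5 and 11.1 CPM in HFD+RE and 23.6, 28.4 and 24.5 CPM in HFD+AE, against 12.6, 14.8 and 9.90 CPM in HFD. All HFD+AE libraries were above all HFD libraries, and of HFD+RE only library 3 was (0.35 ± 0.26, adjusted p = 0.721, in HFD+RE and 1.04 ± 0.27, adjusted p = 0.0625, in HFD+AE). Fn1 had 1801, 1389 and 819 CPM in HFD+RE and 1965, 1993 and 2088 CPM in HFD+AE, against 744, 1526 and 644 CPM in HFD. HFD+AE lay above HFD throughout and HFD+RE overlapped with it (0.46 ± 0.34, adjusted p = 0.719, in HFD+RE and 1.05 ± 0.34, adjusted p = 0.0908, in HFD+AE). Timp3 had 20.4, 6.30 and 4.19 CPM in HFD+RE and 21.9, 19.1 and 15.0 CPM in HFD+AE, against 4.94, 10.5 and 3.29 CPM in HFD. HFD+RE 3 alone of its group stood with HFD+AE (0.72 ± 0.51, adjusted p = 0.701, in HFD+RE and 1.58 ± 0.52, adjusted p = 0.0926, in HFD+AE).

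Members without overlap numbered 0 above and 8 below HFD in HFD+RE, beside 7.15% and 6.99% of all genes. The 8 were Col1a1, Col1a2, Col3a1, Eln, Thbs1, Thbs2, Loxl2 and Vcan. In HFD+AE they numbered 10 above and 5 below, beside 15.8% and 16.3% of all genes. Above were Col4a2, Col18a1, Lama4, Lamb1, Nid1 and Hspg2 of the basement membrane with Col14a1, Fn1, Fbn1 and Timp3, and below were Col3a1, Dcn, Mgp, Thbs1 and Loxl2. Among the 11 members called in HFD against NC, Bgn and Col6a1 had means above HFD in both exercise groups. Bgn averaged 87.5 ± 7.75 CPM in HFD+RE and 98.7 ± 33.9 CPM in HFD+AE, against 75.8 ± 9.89 CPM in HFD and 46.7 ± 0.108 CPM in NC (SD, n = 3 each). In HFD+AE that mean rested on library 3, at 138 CPM beside 77.2 and 81.2 in the other two.

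**Figure D3:**
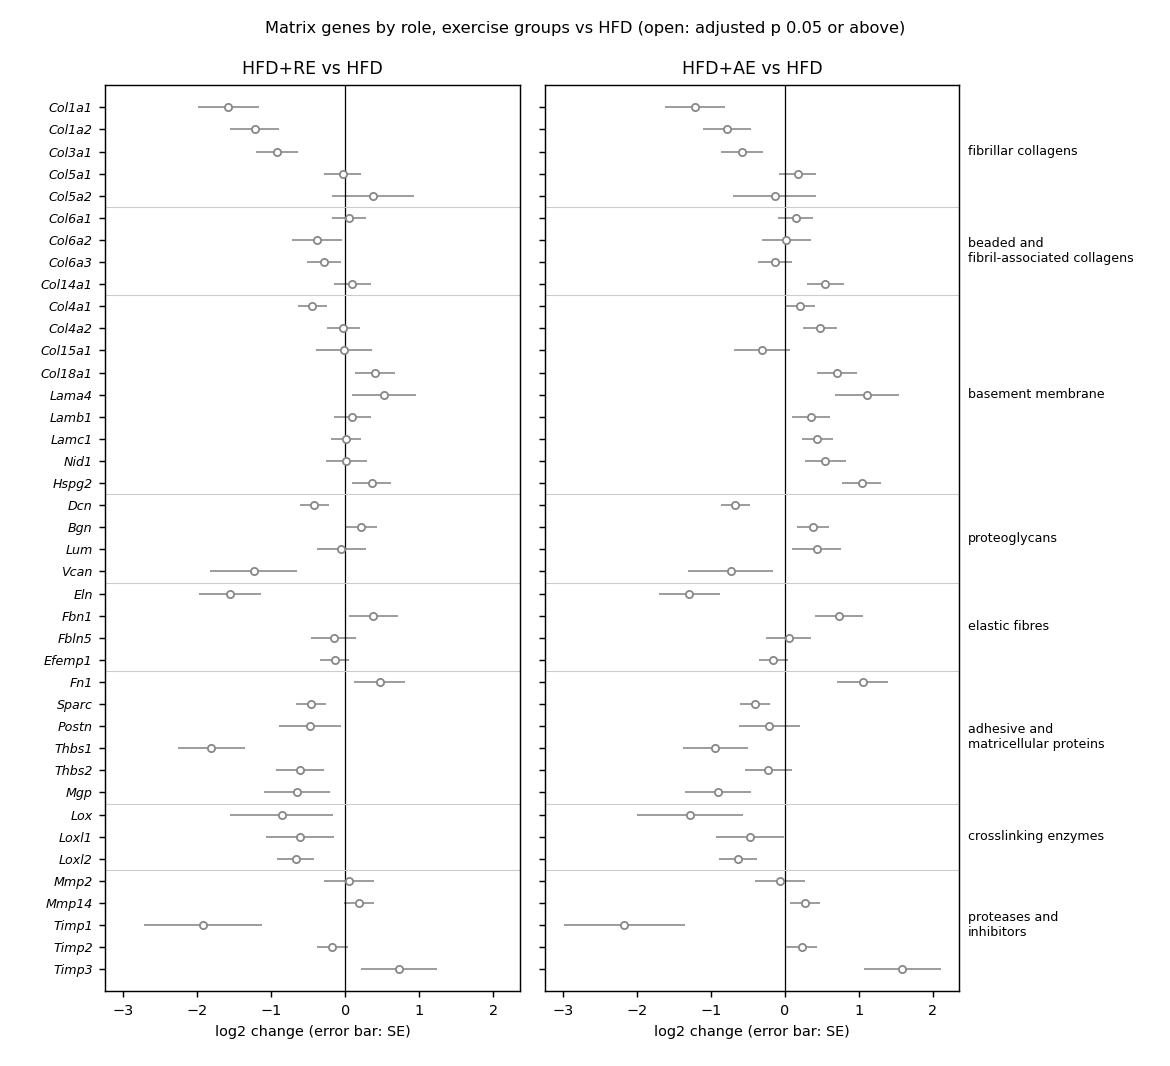
Log2 change of each member in HFD+RE against HFD (left) and HFD+AE against HFD (right), with its SE as error bar and grouped by role; all points are open because no adjusted p was below 0.05. Col1a1, Col1a2, Col3a1, Eln, Thbs1 and Timp1 lie left of 0 in both panels, and 8 of the 9 basement membrane genes lie right of 0 for HFD+AE.

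Leaving out single libraries changed these counts of 0. Without HFD 2, HFD+AE had 3 members called higher (Fn1, Hspg2 and Timp3) and 2 lower (Eln and Dcn), and HFD+RE had 1 lower (Eln), where 8.93% and 0.280% of all genes were called in either direction. Without HFD+RE 3, HFD+AE had 3 higher (Hspg2, Lama4 and Timp3) and 1 lower (Dcn), where 10.2% of all genes were called. The HFD+AE counts in both settings are near these shares.

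The exercise types were compared directly as HFD+RE against HFD+AE, and no member was called, beside 0.00% of all genes. By edgeR 3 members had an unadjusted p below 0.05, each lower in HFD+RE, beside 1468 of the 18305 genes tested in either direction. The share of members is thus near that of all genes, and DESeq2 called 0 members. The 3 members were Col4a1, Col4a2 and Hspg2, all of the basement membrane. Col4a1 had 18.4, 13.9 and 11.2 CPM in HFD+RE 3, 4 and 5, against 21.1, 20.7 and 26.6 CPM in HFD+AE 1, 2 and 3, with no overlap (-0.65 ± 0.20, adjusted p = 0.606). The member median was -0.29, beside 0.01 over all genes, and 5 members (Col4a1, Col4a2, Fn1, Thbs1 and Hspg2) had all HFD+RE libraries below all HFD+AE libraries, beside 5.40% of all genes. No member lay wholly above, where 5.88% of all genes did. With HFD+RE 3 and HFD+AE 3 both left out, 8 members were called lower (Lama4, Hspg2, Col4a1, Nid1, Lum, Timp3, Col14a1 and Postn) and 0 higher. In that setting 22.1% of all genes were called in either direction, and 54.4% of those calls were higher. Leaving out any single library gave 0.

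Both exercise groups were above NC in a few members. In HFD+RE 3 were called higher, beside 2.67% of all genes, and 0 lower, beside 1.28%, out of 3.96% in either direction. In HFD+AE 3 were called higher, beside 0.901%, and 0 lower, beside 0.481%, out of 1.38% in either direction. An unadjusted p below 0.05 with a negative change was found for 2 members in HFD+RE and 0 in HFD+AE, and DESeq2 called 0 lower in both. In either direction, 12 members in HFD+RE and 14 in HFD+AE had such a p, beside 4476 and 2566 of the 18305 genes tested. Bgn and Col6a1 were called in both comparisons, which share the NC libraries.

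Bgn had 95.1, 87.6 and 79.6 CPM in HFD+RE and 77.2, 81.2 and 138 CPM in HFD+AE, against 46.6, 46.8 and 46.7 CPM in NC. All exercise libraries were above all NC libraries (0.91 ± 0.22, adjusted p = 0.0369, in HFD+RE and 1.08 ± 0.22, adjusted p = 0.0301, in HFD+AE). Col6a1 had 9.38, 6.98 and 6.86 CPM in HFD+RE and 6.25, 7.53 and 11.1 CPM in HFD+AE, against 3.51, 4.09 and 4.11 CPM in NC. It too was apart in both (0.98 ± 0.24, adjusted p = 0.0384, in HFD+RE and 1.08 ± 0.24, adjusted p = 0.0441, in HFD+AE). Dcn rose in HFD+RE (0.96 ± 0.20, adjusted p = 0.0203), and in HFD+AE its change was 0.71 ± 0.20 (adjusted p = 0.101). Col14a1 rose in HFD+AE, at 46.1, 40.6 and 61.6 CPM against 25.1, 23.1 and 19.1 CPM in NC (1.14 ± 0.26, adjusted p = 0.0498). In HFD+RE it had 52.3, 24.7 and 31.4 CPM, with library 4 inside the NC range (0.69 ± 0.26, adjusted p = 0.131).

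Members wholly above NC numbered 11 in HFD+RE and 16 in HFD+AE, beside 13.7% and 12.1% of all genes, and those wholly below numbered 3 and 0, beside 12.4% and 9.74%. Fibrillar collagens were not called in either exercise group against NC, with medians of 0.51 in HFD+RE and 0.81 in HFD+AE. For Col1a1 the change was not called in either group, and HFD+RE (3.20 to 4.46 CPM) and HFD+AE (2.90 to 8.05 CPM) overlapped with NC (1.96 to 4.46 CPM). The counts changed on leaving out single libraries, and so did the shares of all genes called, given here in either direction. In HFD+RE, 0 were called higher without HFD+RE 4, HFD+RE 5, NC 2 or NC 4, where 0.594% to 1.45% of all genes were called. There was 1 without HFD 1, HFD 3 or NC 5, where 2.05% to 2.74% of all genes were called. Without HFD+RE 3, 4 were called higher and 4 lower (Hspg2, Col4a1, Lama4 and Timp3), where 3983 of 18953 genes tested were called, so the 8 of 40 members are near the share of all genes. In HFD+AE, 0 were called higher without HFD+AE 2, HFD+AE 3, HFD 1, NC 2, NC 4 or NC 5, and 1 without HFD+RE 5, HFD 2 or HFD 3.

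**Figure D4:**
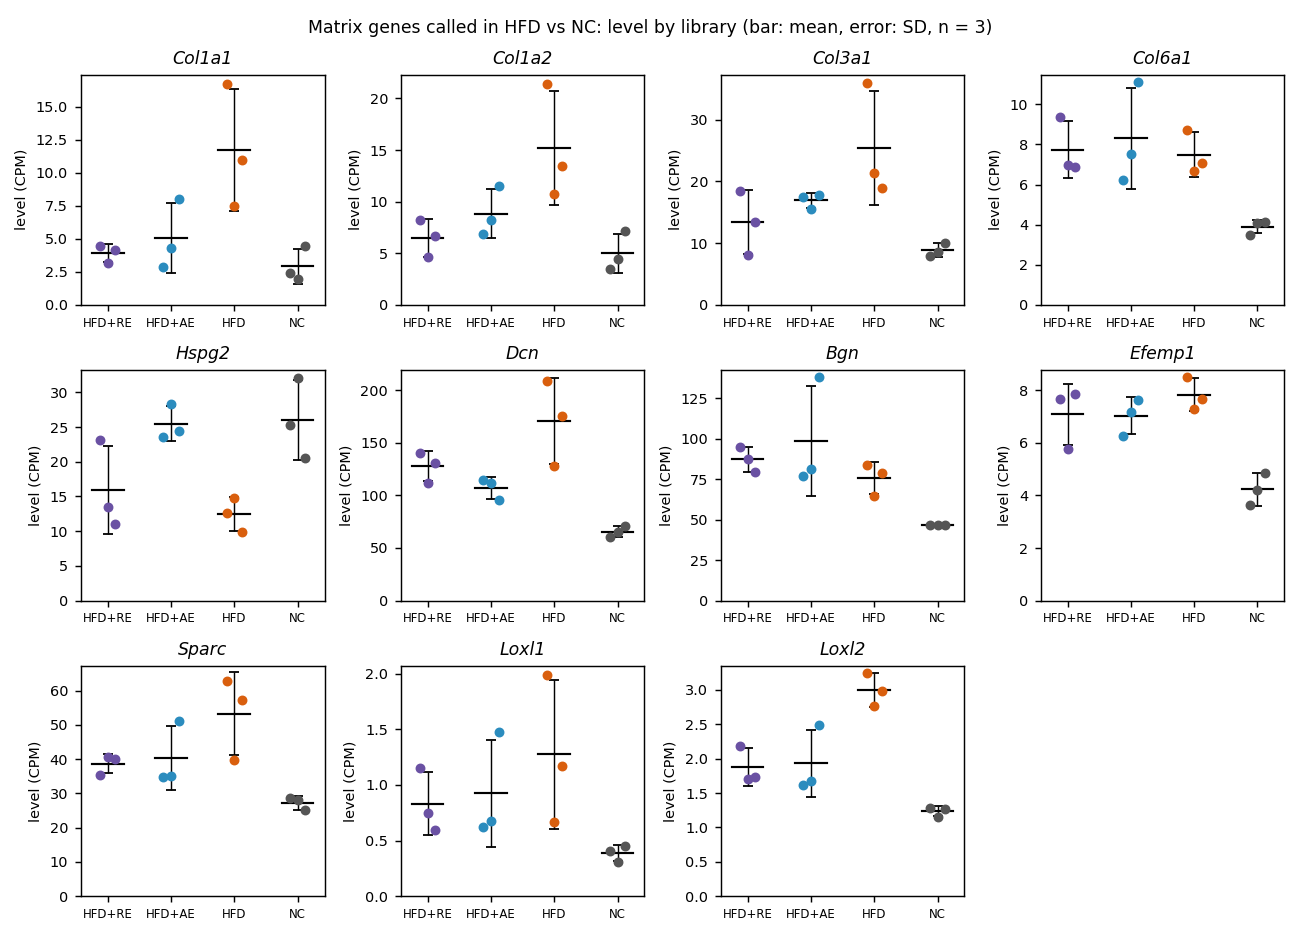
Level in CPM of the 11 members called in HFD against NC, by library (points), with the mean (bar) and SD (error bar) over 3 libraries. Means of the exercise groups lie between HFD and NC for all except Bgn and Col6a1, and HFD 1 is the highest HFD point in each member except Hspg2. The members were selected by their difference between these HFD and NC libraries, so the position of the exercise means is a description and no test of exercise.

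Matrix genes outside the 40 members were counted in 6 lists, beside the 15.6% of all genes called in HFD against NC. The counts for other collagens, TGF-beta signalling and matrix receptors were near that share. Of 15 other collagens tested, 3 rose and none fell: Col27a1 (1.82 ± 0.39, adjusted p = 0.0134), Col16a1 (1.30 ± 0.30, adjusted p = 0.0177) and Col8a2 (1.89 ± 0.58, adjusted p = 0.0444). Their median was -0.38. Among 19 genes of collagen processing, 3 rose and 3 fell. Those with the smallest p were Adamts2, the procollagen N-proteinase (1.57 ± 0.32, adjusted p = 0.0109), Fkbp10, a procollagen chaperone (1.69 ± 0.36, adjusted p = 0.0132), and Mia3, which loads procollagen into carriers (-0.78 ± 0.23, adjusted p = 0.0385). Of 38 other glycoproteins and proteoglycans, 8 rose and 2 fell. Lamb3, a laminin chain, rose by 1.56 ± 0.27 (adjusted p = 0.00632), Tnxb, the tenascin-X gene, rose by 1.36 ± 0.25 (adjusted p = 0.00768), and Nid2, the second nidogen, fell by 1.78 ± 0.33 (adjusted p = 0.00816).

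Of 17 other proteases and inhibitors, 2 rose and 3 fell, led by Serpine2 (-2.86 ± 0.41, adjusted p = 0.00259), Reck (-1.37 ± 0.22, adjusted p = 0.00451) and Adamts5, an aggrecanase (1.48 ± 0.32, adjusted p = 0.0141). Serpine2 encodes a serine protease inhibitor and Reck a membrane-bound metalloproteinase inhibitor. Of 17 genes of TGF-beta signalling, the pathway best known for driving collagen transcription, none rose and 2 fell: Skil, a repressor of SMADs (-1.30 ± 0.37, adjusted p = 0.0345), and Smad4, the shared SMAD (-0.58 ± 0.18, adjusted p = 0.0412). Of 20 matrix receptors, 1 rose, the collagen receptor gene Ddr2 (0.67 ± 0.19, adjusted p = 0.0373), and 2 fell, Sdc2 (-0.67 ± 0.19, adjusted p = 0.0343) and Itgb1, the shared β1 integrin chain (-0.70 ± 0.21, adjusted p = 0.0393). Against HFD, none of these 6 lists had a called gene in HFD+RE. In HFD+AE the call was Tgfbr3, the TGF-beta co-receptor betaglycan (1.02 ± 0.16, adjusted p = 0.0471).

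Marker genes of other cell types are given beside these results, and the most abundant marker of a list is the one with the highest mean CPM over the 12 libraries. Counts of markers called in HFD against NC stand beside 8.38% of all genes called higher and 7.19% called lower. A single call in so short a list does not stand apart from these shares. Stellate cell markers, summed over 12 genes, were at 129 to 206 CPM in HFD+RE and 158 to 186 CPM in HFD+AE. They were at 146, 144 and 149 CPM in HFD 1, 2 and 3, against 90.5, 105 and 92.5 CPM in NC 2, 4 and 5. Of the 12, 5 rose (Cygb, Nes, Hand2, Lrat and Pdgfrb, named after their values were seen, as are the called markers below), while Reln, the most abundant, had 32.6 ± 3.55 CPM in HFD and 30.3 ± 4.3 CPM in NC (SD, n = 3 each). Portal fibroblast markers summed to 85.0 to 90.6 CPM in HFD, against 32.2 to 51 CPM in NC, and 2 of 6 tested rose (Thy1 and Gas6, of which Gas6 made up most of the sum). Myofibroblast and smooth muscle markers summed to 28.7 to 45.2 CPM in HFD, against 10.9 to 26.8 CPM in NC, and 1 of 9 rose, Tpm2, the most abundant of them. Of 3 mesothelial markers tested, 1 rose (Wt1), and the 6 listed, led by Gpm6a, summed to 1.59 to 2.09 CPM in HFD, against 0.802 to 1.49 CPM in NC.

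Endothelial markers, like Hspg2, were lower in HFD. Led by Stab2, they summed to 338, 245 and 124 CPM in HFD+RE 3, 4 and 5, and to 423, 461 and 269 CPM in HFD+AE 1, 2 and 3. They summed to 176, 233 and 139 CPM in HFD 1, 2 and 3, against 380, 399 and 323 CPM in NC 2, 4 and 5, and 4 of 12 fell (Kdr, Tek, Cdh5 and Gpr182). HFD+RE 3 and HFD+AE 1 and 2 were at or above the lowest NC library. Kupffer cell markers, led by Clec4f, summed to 156 to 306 CPM in HFD, against 308 to 509 CPM in NC, with 1 of 11 lower (Cd163). T and NK cell markers, led by Lck, summed to 24.5, 5.31 and 45.0 CPM in HFD 1, 2 and 3, against 4.63, 5.74 and 11.1 CPM in NC, and 3 of 8 rose (Trbc2, Lck and Nkg7). HFD 2, lowest of its group in most called members, was at NC level for this list.

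Hepatocyte markers, led by Alb, summed to 58669 to 83475 CPM in HFD, against 109540 to 127290 CPM in NC, with 4 of 8 lower (Hnf4a, Cps1, Alb and Tat). For lipid-associated macrophages, led by Spp1, 1 of 7 rose (Ccr2) and 1 fell (Cd9), with sums of 49.1 to 87.3 CPM in HFD, against 46.9 to 65.6 CPM in NC. Adipocyte markers summed to 26.1, 57.1 and 17.6 CPM in HFD 1, 2 and 3, against 8.43 to 9.16 CPM in NC, with 2 of 3 tested higher (Cfd and Fabp4) and Lep at 0 in every library. Fabp4, the most abundant over the 12 libraries, was highest in HFD 1 and 3, at 10.6 and 7.39 CPM, and in HFD 2 Cfd was highest, at 45.0 CPM. For erythroid markers, led by Hbb-bs, 1 of 5 fell (Alas2), with sums of 273 to 493 CPM in HFD, against 159 to 301 CPM in NC. The part of these cell type differences in the member results was not tested.

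**Figure D5:**
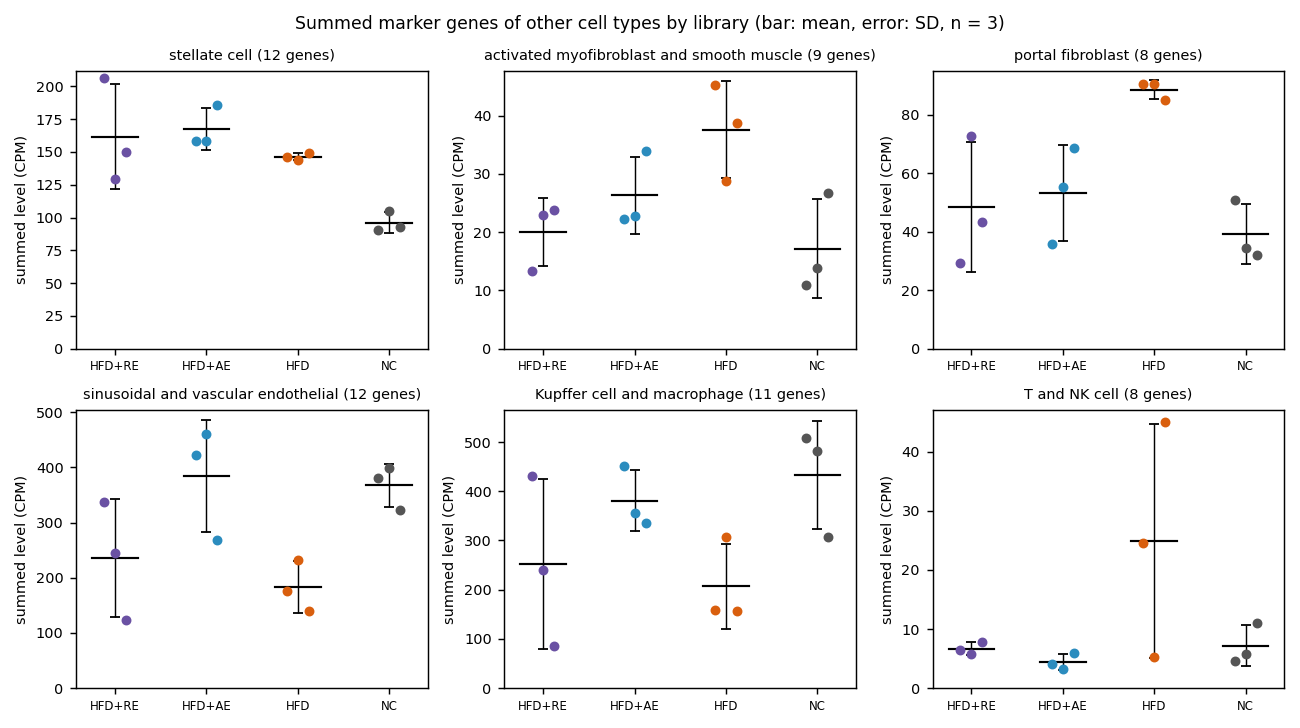
Summed level (CPM) of the marker genes of 6 cell types by library (points), with the mean (bar) and SD (error bar) over 3 libraries. Stellate and portal fibroblast sums are higher in every HFD library than in every NC library, endothelial sums are lower, and the T and NK cell sum is high in HFD 1 and 3 but not in HFD 2.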

How the data were processed

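The authors deposited 1 table of whole-number read counts per gene for 12 libraries of mouse liver RNA. Per the file headers, counts were made with featureCounts 2.0.6. Per the submitters' processing notes, fastp, HISAT2 2.2.1 and DESeq2 1.40.1 were used with the mm10 build. The sources used here do not give the annotation release, the strand setting or how multi-mapping reads were treated. Without strand, reads of overlapping genes on opposite strands cannot be told apart. Low counts (1 to 49) were even in 64.8% to 73.6% of values, and those of 200 and more in 49.6% to 51.6%. A fit on halved counts was therefore added after seeing the data. Each of the 12 was counted as a separate sample, since chi-square values between libraries were at least 64.1 per degree of freedom.

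Genes were filtered by edgeR 4.0.16's default filter by group, scaled by TMM and tested in R 4.3.3 with the robust quasi-likelihood F-test, in 1 model of 12 libraries with a mean per group. P-values were Benjamini-Hochberg adjusted over the 18305 genes tested in each of 6 comparisons, and adjusted p-values are from this test unless DESeq2 (1.42.0) is named. A gene was called at an adjusted p below 0.05. SE is the log2 change divided by the square root of F. Levels are CPM on TMM-scaled totals. Length is the union of exons, which understates genes with long rare isoforms. Counts per gene do not tell isoforms apart.

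The members and lists were chosen with earlier results of these data known. All 40 members were named, up to 3 called genes per matrix list by smallest p, and the most abundant marker of each cell type list reported. The results of some marker lists are not reported here. Promoters came from the RefSeq table of build GRCm38.p6. The scripts were tested on simulated counts. Alternatives were RLE scaling, library totals, DESeq2, no filter, the compared groups alone, removal of length and GC trends (splines with 5 degrees of freedom), replicate numbers as a block, and leaving out libraries.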

Additional observations from a re-analysis of the deposited data

How the results depend on the processing

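No call on a member changed sign in any of the 22 alternatives per comparison. For HFD against NC (10 members higher, 1 lower), the count lower was 3 with DESeq2, 3 with only the 2 groups compared and 3 without HFD+AE 3 and HFD+RE 3 together, where the count higher was 18. In that order, these settings called 20.4%, 28.7% and 33.1% of all genes in either direction. Beyond the edgeR calls, DESeq2 called Col5a1, Col6a2, Fbln5 and Timp1 higher and Fn1 and Timp3 lower. With the length and GC trend removed the count higher was 16, where 18.3% of all genes were called in either direction. Leaving out single libraries gave 2 to 16 higher and 0 to 3 lower. For HFD+AE against HFD (0 and 0), library totals gave 1 lower, DESeq2 3 higher and 3 lower, no low-count filter 2 higher, the 2 groups alone 1 higher, and omission of HFD+AE 3 and HFD+RE 3 gave 3 higher and 4 lower. In that order, these settings called 4.22%, 11.2%, 3.04%, 3.75% and 22.5% of all genes in either direction. Single omissions gave 0 to 3 higher and 0 to 2 lower. For HFD+RE against HFD (0 and 0), DESeq2 gave 4 lower and single omissions 0 to 1 lower. For HFD+RE against HFD+AE, omission of HFD+AE 3 and HFD+RE 3 gave 8 lower, where 22.1% of all genes were called and 54.4% of those calls were higher. For HFD+AE against NC (3 higher), library totals gave 1, DESeq2 6, the 2 groups alone 0, the trend removed 5 and single omissions 0 to 3. Library totals, DESeq2, the 2 groups alone and the trend removed called 1.26%, 4.40%, 0.490% and 2.33% of all genes there in either direction. For HFD+RE against NC (3 higher, 0 lower), the 2 groups alone gave 0 higher, omission of HFD+AE 3 and HFD+RE 3 gave 5 higher and 5 lower, and single omissions gave 0 to 4 higher and 0 to 4 lower. The 2 groups alone called 0.646% of all genes there, and the joint omission 31.7%, in either direction. The cause of these moves was not tested.

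Whether library numbers pair samples across groups is not stated, and so few libraries cannot decide it. Same-numbered HFD+AE and HFD libraries correlated at -0.19, 0.19 and 0.20 in their deviations from group means. Of these 6 libraries, 3 correlated best with their own number, with 3 candidates for each. Same-numbered libraries of other groups ran from -0.64 (HFD+RE 3 with HFD+AE 3) to 0.21 (HFD+RE 5 with NC 5). With the replicate block, HFD against NC gave 0 higher and 0 lower, HFD+AE against NC 0 higher and HFD+RE against NC 0 higher. In that order, 1.78%, 0.00546% and 0.0819% of all genes were called there in either direction. With the block and the length and GC trend removed, HFD against NC gave 4 higher and 1 lower, beside 4.95% of all genes in either direction. Both exercise groups against NC gave 0, beside 0.0929% of all genes in HFD+AE and 0.972% in HFD+RE.

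The number of genes tested ranged from 16243 with halved counts to 31348 unfiltered. Over all genes, HFD against NC called 2851 genes, and 4161 with DESeq2, 4928 with the 2 groups alone and 6258 without HFD+AE 3 and HFD+RE 3. It called 3351 with the trend removed, 325 with the block, 906 with the block and the trend removed, and 411 to 4462 with single omissions. HFD+AE against HFD called 9, and 772 with library totals, 2088 with DESeq2, 953 unfiltered, 649 with the 2 groups alone, 4253 without HFD+AE 3 and HFD+RE 3, 505 with the trend removed, 99 with halved counts, 2 with the block, 0 with the block and the trend removed, and 0 to 1930 with single omissions. HFD+RE against HFD called 2, and 185 with DESeq2, 43 unfiltered, 8 with the trend removed, 5 without HFD+AE 3 and HFD+RE 3, 1 with the block, and 2 to 53 with single omissions. HFD+RE against HFD+AE called 0, and 24 with DESeq2, 2 unfiltered, 4170 without HFD+AE 3 and HFD+RE 3, and 0 to 2 with single omissions. HFD+AE against NC called 253, and 791 with DESeq2, 408 unfiltered, 82 with the 2 groups alone, 426 with the trend removed, 1 with the block, and 44 to 373 with single omissions. HFD+RE against NC called 724, and 1940 with DESeq2, 110 with the 2 groups alone, 5989 without HFD+AE 3 and HFD+RE 3, 1125 with the trend removed, 15 with the block, and 112 to 3983 with single omissions. Library totals moved the median of all genes by 0.19 in HFD against NC, by -0.22 in HFD+AE against HFD and by -0.16 in HFD+RE against HFD. The share of calls that were higher in HFD against NC was then 81.1%, beside 53.8%, and in HFD+AE against HFD 8.42%, beside 33.3%. The lowest members, Lox and Vcan, had 2 to 24 and 4 to 16 counts per library, so changes in them were poorly resolved at this depth.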

Other observations

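Other matrix genes also differed between exercise groups and NC. In HFD+RE against NC, the collagen prolyl hydroxylase genes P4ha1 and P4ha2 fell by 1.92 ± 0.34 and 1.4 ± 0.28 on the log2 scale (edgeR, adjusted p = 0.0123 and 0.0185), and the procollagen chaperone gene Fkbp10 rose by 1.55 ± 0.36 (adjusted p = 0.0321). Smoc2, a basement membrane-associated matricellular gene, rose in HFD+RE (1.42 ± 0.30, adjusted p = 0.0243) and in HFD+AE (1.36 ± 0.30, adjusted p = 0.0468), both against the same NC libraries. In HFD+AE against NC, the only one of 15 other collagens called was Col5a3, a type V chain, which fell by 1.25 ± 0.23 (adjusted p = 0.0245). Tgfbi rose by 0.97 ± 0.20 (adjusted p = 0.0329), Prelp, a leucine-rich proteoglycan gene, by 1.09 ± 0.25 (adjusted p = 0.0478), and Tgfbr3 by 0.74 ± 0.16 (adjusted p = 0.0373). Serpine2 fell in HFD+RE against NC by 1.73 ± 0.39 (adjusted p = 0.0299). Cygb and Hand2, stellate cell markers, rose there by 1.82 ± 0.36 and 1.46 ± 0.35 (adjusted p = 0.0178 and 0.0366).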
